A study of Mus musculus with 2 samples.

Results

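The barcodes described here, from embryonic mouse thymus, met an expression rule for early T progenitors with scarce Tcf7 transcripts; part of them did not bear out that name. They were chosen from single-cell counts of sorted DN1 cells by their own expression, and 144 of 6057 barcodes met the rule. A barcode needed at least 500 genes, at most 10% mitochondrial UMIs (unique molecular identifiers, each standing for 1 captured transcript) and at most 1 UMI of the thymic epithelial genes Krt8, Krt18 and Prss16. The genes Spi1, Bcl11a, Lyl1, Mef2c and Cd34 together had to reach 350 CPM (a barcode's UMIs scaled to its total), with Cd3g under 400 CPM. Fewer than 3 UMIs of Gata2, Ms4a2 and Fcer1a, fewer than 3 of Mpo, at most 1 of Zbtb16, Rora and Icos, and Tcf7 under 150 CPM completed the rule. The 172 barcodes that met every step but the last are called high-Tcf7 barcodes.

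The mice carried the 5x polychromILC reporter alleles, in which fluorescent or surface reporters mark loci used to follow innate lymphoid and T cell development. The labels name 1 library each of E15.5_DN1 and E19.5_DN1, DN1 cells sorted from embryonic thymus at those stages, and both carry the same reporter alleles. The table holds barcodes with suffix 1 (2182) and suffix 2 (3875), and no label ties a suffix to a stage. The suffixes are therefore given as 1 and 2, without replicates, and no test of a difference was run. The intervals are 95% intervals of counting error only, exact Poisson for a level, conditional exact for a ratio and Clopper-Pearson for a share.

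Early T progenitors are the least mature lymphoid cells of the thymus and keep genes of the blood progenitors that seed it. Tcf7 encodes TCF-1, a transcription factor that is switched on by Notch signals after the cells settle, and that opens the T cell programme. In mouse thymus, Flt3, Cd34, Hoxa9 and Spi1 (PU.1) fade as cells move from this stage towards commitment, while Il2ra and Bcl11b come up. Tcf7 lies on chromosome 11 (52246527 to 52283383, GRCm38), Flt3 on chromosome 5 (147330741 to 147400489) and Hoxa9 on chromosome 6 (52223097 to 52227370). These are positions of whole protein-coding genes in RefSeq, and the 3′ counts do not separate transcripts within them.

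Of the 144 low-Tcf7 barcodes, 51 carried suffix 1 and 93 suffix 2. Of the 316 barcodes that met every step but the last, these are 40.5% in suffix 1 (interval 31.8 to 49.6%) and 48.9% in suffix 2 (41.6 to 56.3%), with intervals that overlap. Barcode sequences found under both suffixes numbered 25, and 2 of the low-Tcf7 barcodes carried 1 of them, with 0 sequences shared by 2 low-Tcf7 barcodes. The values next to the limit were close together: the highest Tcf7 levels inside it were 147.7 and 144.7 CPM, and the lowest outside it 150.05 and 154.1 CPM. The lowest sum of the 5 progenitor genes in a low-Tcf7 barcode was 361.9 CPM, and the highest in a barcode that missed only that step was 349.0 CPM. No Tcf7 UMI was seen in 77 of the 144.

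Not all 144 barcodes bore out the name early T progenitor. A total of 43 had fewer than 10000 UMIs (median 2079), and in these the 5 progenitor genes gave a median of 2 UMIs, with 25 barcodes at 2 or fewer. Under 6667 UMIs a single Tcf7 UMI puts a barcode over the limit, so shallow barcodes are low in Tcf7 when they show 0 UMIs; 41 of the 43 did. A further measure, made after the values were seen, was the UMI count of genes that define other blood cells. At 10 or more UMIs, 9 barcodes were over the limit for mast cell genes (Cma1, Mcpt4, Tpsb2, Mcpt8 and Hdc), with 185 to 385 UMIs each, and 7 for MHC class II genes of antigen-presenting cells, with 11 to 159. B lineage genes passed it in 5 barcodes, 4 of them also over the MHC class II limit, and neutrophil genes in 1 barcode with 1091 UMIs. Together 18 low-Tcf7 barcodes were over a limit, 3 in suffix 1 and 15 in suffix 2, against 0 of the 172 high-Tcf7 barcodes. They are called by their leading genes and given no cell type. Their part in the results over all 144 was not tested beyond the values given without them.

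The other 98 barcodes, 37 in suffix 1 and 61 in suffix 2, had at least 10000 UMIs (median 28970) and fewer than 10 UMIs of each of those gene groups. Of these 98, 97 held UMIs of at least 3 of the 5 progenitor genes, with a median of 23 UMIs. The high-Tcf7 barcodes chosen the same way numbered 150 (67 and 83, median 24817.5 UMIs), and 147 of them held at least 3 of the 5 genes. Each result below is led by this deep comparison of 98 with 150, a choice made after the data were seen, and the value over all 144 and 172 is given where it differs. Over all barcodes the summed depth was 3217338 UMIs in the low-Tcf7 and 4161717 in the high-Tcf7 set.

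Marker lists of other cell types were summed in the deep barcodes. Mast cell and basophil markers, 10 genes with Cpa3 among them, summed to 107 CPM in low-Tcf7 and 361 CPM in high-Tcf7 barcodes, with 4 genes at 0 in each, against 910 and 359 CPM over all 144 and 172. NK and ILC1 markers summed to 259 and 612 CPM, and ILC2 markers to 149 and 309 CPM. Macrophage markers summed to 72.8 and 41.7 CPM, dendritic to 36.6 and 16 CPM, neutrophil to 38.2 and 40.5 CPM, B lineage to 77.1 and 93.5 CPM and plasmacytoid to 459 and 471 CPM. Lymphoid tissue inducer markers summed to 91.1 and 78.5 CPM, thymic epithelial to 44.2 and 68.1 CPM and endothelial or mesenchymal to 105 and 126 CPM. Megakaryocyte and erythroid markers, not used to set barcodes aside, summed to 861 and 801 CPM. Of 10 measured members 5 were at least 2-fold higher and 1 lower, beside 1.92% and 1.81% of all genes. Their median log2 ratio was 0.82 (-0.74 to 3.53). A single barcode held up to 294 of these UMIs in the low-Tcf7 and 341 in the high-Tcf7 set. In suffix 1 alone 0 of 5 measured members of this list were at least 2-fold higher and 2 lower (median -0.40). In suffix 2 these were 5 and 1 of 10 (median 0.73). Among barcodes with at least 3 Mpo UMIs, described below, 0 of 7 were higher and 2 lower (median -0.69), beside 1.07% and 1.12% of all genes. The part of other cell types in the results below was not tested.

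**Figure D1:**
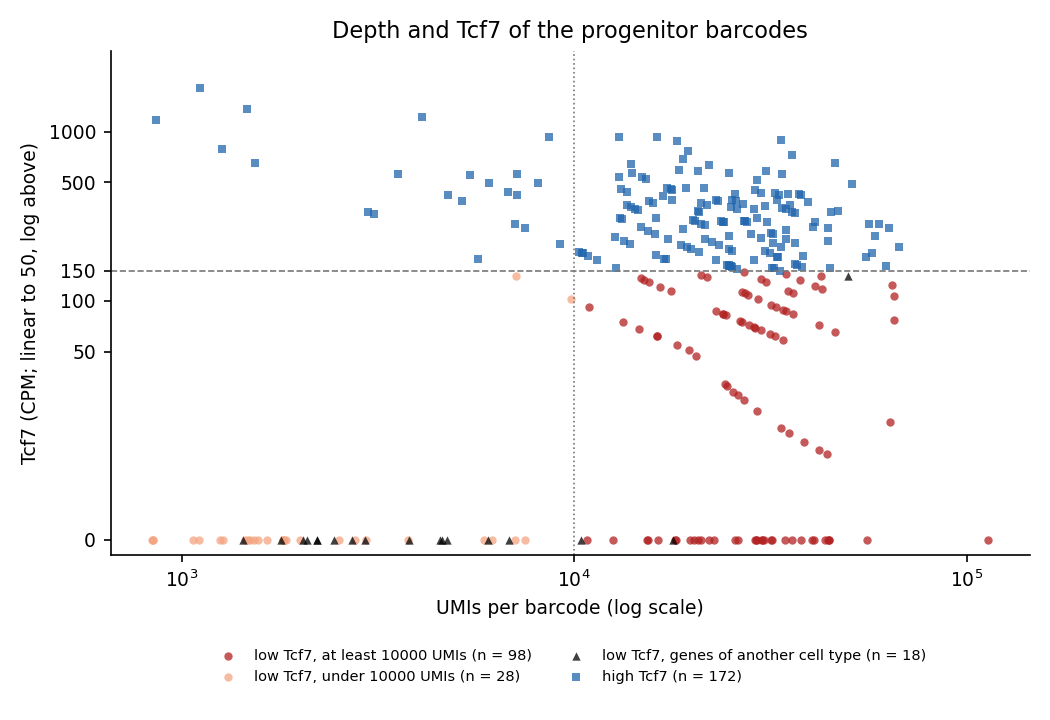
Tcf7 level (CPM, linear to 50 and log above) against UMIs per barcode (log axis), each point 1 barcode, with dashed lines at 150 CPM and 10000 UMIs. The low-Tcf7 barcodes under 10000 UMIs lie almost all at 0 CPM, while those of 10000 or more spread up to the limit.

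Flt3, Hoxa9 and Lmo2, genes of multipotent blood progenitors, had high ratios in the low-Tcf7 barcodes, while Kit was near level and Myb and Ikzf2 were at lower levels; the sum of the rule's 5 progenitor genes was required of both sets. Flt3, a cytokine receptor of multipotent and lymphoid progenitors and a marker the rule did not use, had 8.69 and 34.5 CPM in the deep low-Tcf7 barcodes of suffix 1 and suffix 2, against 1.10 and 6.28 CPM in the deep high-Tcf7 barcodes. Both suffixes were higher in the low-Tcf7 set, but the suffix 1 values rest on 9 and 2 UMIs. Over both suffixes the log2 ratio was 2.70 (1.91 to 3.57). Hoxa9, a homeobox transcription factor of blood stem and progenitor cells, had 26.1 and 57.3 CPM in the low-Tcf7 barcodes of suffix 1 and suffix 2, against 7.67 and 9.87 CPM in the high-Tcf7 barcodes (log2 ratio 2.39, 1.85 to 2.96). For both genes the lower suffix sum of the low-Tcf7 set was above the higher suffix sum of the high-Tcf7 set. These are summed levels, and single barcodes of the sets overlapped.

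The Hoxa, Meis and Pbx list held 13 genes of this homeobox network, of which 7 reached 20 UMIs in the deep comparison. All 7 had a log2 ratio above 0, with a median of 0.97 (0.10 to 2.52) beside one of -0.00 over all 9511 genes measured, and 3 of the 7 were at least 2-fold higher; the background of genes at least 2-fold higher in this comparison was 1.92%. Within a suffix 5 genes could be measured, with medians of 0.57 in suffix 1 (1 at least 2-fold higher, 5 above 0) and 0.95 in suffix 2 (2 at least 2-fold higher, 4 above 0). Hoxa7 had 42.9 CPM in low-Tcf7 and 22.0 CPM in high-Tcf7 barcodes, Hoxa5 5.65 and 0.987 CPM, and Meis1, a Hoxa cofactor gene, 23.6 and 14.8 CPM. Pbx2, which is broadly expressed, had 47.9 and 44.7 CPM, a log2 ratio of 0.10. The other 6 genes of the list were under that count, and genes that pass the minimum only through the set where they are high could not have come out otherwise.

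Among the 5 genes the rule used, which describe the choice of cells and are no finding, the sets were unequal. Cd34, a surface sialomucin of progenitors, had 188 CPM in low-Tcf7 and 95.5 CPM in high-Tcf7 barcodes, and Mef2c, a lymphoid-myeloid regulator, 193 and 107 CPM. Bcl11a, a zinc finger factor needed for lymphoid progenitors, had 195 and 139 CPM. Spi1 was level at 143 and 144 CPM, and Lyl1, a basic helix-loop-helix factor, ran the other way with 120 and 153 CPM.

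The wider list of stem and progenitor regulators was split. Of 17 measured members 9 lay above 0 and 2 were at least 2-fold higher, and the median was 0.06 (-0.31 to 0.49). Lmo2, a LIM-only partner of the blood progenitor factors Tal1 and Lyl1, had the highest ratio of those described: 16.4 and 53.7 CPM in the low-Tcf7 barcodes of suffix 1 and suffix 2, against 4.38 and 10.3 CPM in the high-Tcf7 barcodes (log2 ratio 2.42, 1.84 to 3.04). Tal1 was at 12 CPM in low-Tcf7 and 5.92 CPM in high-Tcf7 barcodes. Myb, which drives progenitor proliferation, had 234 and 324 CPM and Ikzf2 (Helios) 80.1 and 141 CPM, both lower in the low-Tcf7 barcodes. Lmo2, Tal1, Ikzf2 and, above, Hoxa5 lie outside the rule for named genes and were chosen after their values were seen.

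Surface receptors of progenitors were mixed. Of 15 measured members 12 lay above 0, with a median of 0.16 (0.01 to 0.98), and 3 were at least 2-fold higher: Flt3, Csf1r (11.3 against 2.47 CPM, the receptor for macrophage colony-stimulating factor) and Csf2rb (5.65 against 0.987 CPM). In suffix 1 alone 5 of 11 measured members lay above 0 and 0 were at least 2-fold higher (median -0.03), against 9 of 14 and 3 in suffix 2 (median 0.20). Csf2rb had 17 low-Tcf7 and 4 high-Tcf7 UMIs, so it reached the 20 UMIs only with the set where it is high. Csf2rb and Kit were also chosen after their values were seen. Kit, the stem cell factor receptor that defines early T progenitors, was near level at 80.1 CPM in low-Tcf7 and 92 CPM in high-Tcf7 barcodes (log2 ratio -0.20, -0.44 to 0.04). Ptprc (CD45) had 151 and 150 CPM. Ccr9, a chemokine receptor of thymus-seeding progenitors that was chosen after its value was seen, had 12.6 and 2.96 CPM, all 38 of its low-Tcf7 UMIs in suffix 2.

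Egfl7 and Hmga2 had high ratios in both suffixes. Egfl7, which encodes a secreted factor of endothelial and blood progenitor cells, had 102 and 176 CPM in the low-Tcf7 barcodes of suffix 1 and suffix 2, against 61.9 and 60.1 CPM in the high-Tcf7 barcodes (log2 ratio 1.31, 1.08 to 1.54). Hmga2, a chromatin protein of fetal blood stem cells, had 81.1 and 58.8 CPM, against 27.9 and 23.3 CPM (log2 ratio 1.39, 1.04 to 1.74). Both genes had a higher summed level in the low-Tcf7 set of each suffix, while single barcodes of the sets overlapped. The fetal programme list that holds Hmga2 was not set apart: 1 of 7 measured members was at least 2-fold higher and 2 lay above 0, with a median of -0.05. Igf2bp3 had 77.5 CPM in low-Tcf7 and 81.9 CPM in high-Tcf7 barcodes.

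**Figure D2:**
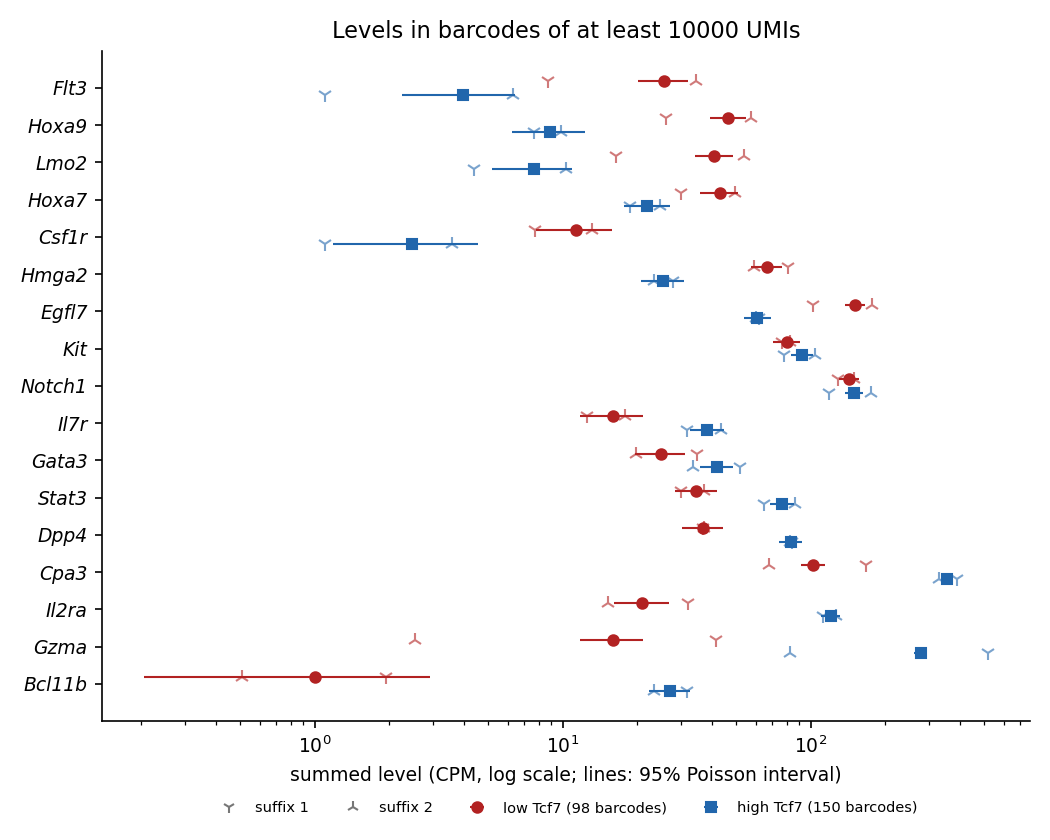
Summed levels (CPM, log axis) of 17 genes in the 98 deep low-Tcf7 and 150 deep high-Tcf7 barcodes, with 95% Poisson intervals as lines and the values of suffix 1 and suffix 2 as small three-armed marks. Flt3, Hoxa9 and Hmga2 stand to the right in the low-Tcf7 barcodes, Il2ra, Gzma and Bcl11b to the left, and Kit and Notch1 near each other.

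Several genes of T cell commitment were lower in the low-Tcf7 barcodes. The list of commitment genes had 14 measured members, of which 6 were at least 2-fold lower and 0 at least 2-fold higher in the low-Tcf7 barcodes, with a median of -0.79 (-1.70 to 0.34); the background of genes at least 2-fold lower was 1.81%. Some of the 6, such as Thy1 with 16 low-Tcf7 and 70 high-Tcf7 UMIs and Fam169b with 13 and 89, reached the minimum only with the high-Tcf7 set, so the count is a description. In suffix 1 alone 6 of 12 were at least 2-fold lower and 1 higher. With each barcode thinned to 10000 UMIs, the list summed to a median of 8 UMIs in both sets of suffix 1. In suffix 2 the medians were 6 in low-Tcf7 and 8 in high-Tcf7 barcodes, and the interquartile ranges overlapped in each suffix. Il2ra, the interleukin 2 receptor alpha chain (CD25) that marks entry into the next thymocyte stage, had 31.9 and 15.2 CPM in the low-Tcf7 barcodes of suffix 1 and suffix 2, against 112 and 127 CPM in the high-Tcf7 barcodes (log2 ratio -2.52, -2.92 to -2.14). Both suffix sums of the low-Tcf7 set were below both of the high-Tcf7 set, while single barcodes of the sets overlapped. Thy1 had 5.32 and 17.3 CPM in low-Tcf7 and high-Tcf7 barcodes, and Fam169b 4.32 and 22.0 CPM. Cd3g, a chain of the T cell receptor complex that the rule limited, had 9.31 and 29.9 CPM. Some members ran the other way: Cd27, a costimulatory receptor, had 156 and 123 CPM, and Cd7 48.2 and 35.5 CPM. Lck, the kinase of T cell receptor signals, had 143 and 182 CPM. Khdc1a had 60.9 and 7.60 CPM in the low-Tcf7 barcodes of suffix 1 and suffix 2, against 108 and 40.8 CPM, and belongs to a family of near-identical copies among which reads can be split. Thy1, Fam169b and Cd7 were chosen after their values were seen.

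Most T lineage regulators differed by less than 2-fold. Of 13 measured members 2 lay above 0 and 1 was at least 2-fold lower, with a median of -0.25 (-0.58 to -0.13). That member was Bcl11b, the factor that closes off other fates at commitment, with 3 UMIs in the low-Tcf7 and 110 in the high-Tcf7 barcodes, or 0.997 and 27.1 CPM (log2 ratio -4.77, -7.07 to -3.18). It was chosen after its value was seen. Gata3, which acts with TCF-1 early in the T lineage, had 24.9 and 41.9 CPM in low-Tcf7 and high-Tcf7 barcodes (log2 ratio -0.75, -1.16 to -0.35), and Sox4 594 and 674 CPM. Il7r, the interleukin 7 receptor chain, had 16 and 38.2 CPM (log2 ratio -1.26, -1.76 to -0.79).

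The reporter rows followed in part. The hCD2 reporter of Gata3 had 24 UMIs in the low-Tcf7 and 100 in the high-Tcf7 barcodes, or 7.98 and 24.7 CPM. TdTomato, the reporter of Bcl11b, had 0 and 3 UMIs, and mTeal, the reporter of Rora, 1 and 6 UMIs. The rule limited Rora itself. The tagBFP reporter of Id2, an inhibitor of E proteins used by innate lymphoid cells, was near level at 42.9 and 45.9 CPM in the deep barcodes, and at 64.0 and 46.6 CPM over all 144 and 172.

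Notch pathway genes, whose signals act upstream of Tcf7, were near level. Of 14 measured members 7 lay above 0, with a median of -0.01 (-0.45 to 0.19). Notch1, the receptor that T progenitors require, had 143 CPM in low-Tcf7 and 150 CPM in high-Tcf7 barcodes (log2 ratio -0.07, -0.25 to 0.11), and Rbpj, the nuclear partner of Notch, 43.9 and 41.4 CPM. Among the target genes the suffixes differed. Hes1 had 120 and 67.9 CPM in the low-Tcf7 barcodes of suffix 1 and suffix 2, against 97.5 and 134 CPM in the high-Tcf7 barcodes, so it was higher in suffix 1 and lower in suffix 2. Nrarp, a feedback inhibitor, had 55.1 and 12.7 CPM, against 56.4 and 34.1 CPM. Dtx1 was lower in both suffixes, with 23.2 and 6.59 CPM against 36.7 and 16.2 CPM. Nrarp and Dtx1 were chosen after their values were seen.

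Gzma and Cpa3, genes also used by innate lymphoid and mast cells, were at lower levels in the low-Tcf7 barcodes. Gzma, a serine protease of cytotoxic granules, had 41.5 and 2.53 CPM in the low-Tcf7 barcodes of suffix 1 and suffix 2, against 517 and 82.6 CPM in the high-Tcf7 barcodes (log2 ratio -4.12, -4.57 to -3.71). The gene was lower in the low-Tcf7 barcodes of each suffix, and few barcodes carried most of it: 19 of 98 low-Tcf7 and 64 of 150 high-Tcf7 barcodes held a UMI, and a single barcode gave 25% and 16.6% of those UMIs. Over all 144 and 172 barcodes the levels were 32.0 and 275 CPM (log2 ratio -3.10). Gzmb had 14.3 and 45.1 CPM, and Nkg7, a granule membrane protein, 211 and 260 CPM. Of 6 measured NK and ILC1 markers, 4 were at least 2-fold lower and 0 higher, beside 1.81% and 1.92% of all genes. Their median was -1.46 (-4.12 to -0.21). Over all 144 and 172 barcodes 2 of 7 were at least 2-fold lower, beside 1.63%, with a median of -0.28 (-3.10 to 0.76). Cpa3, a carboxypeptidase of mast cells that early thymic progenitors also express, had 167 and 67.9 CPM in the low-Tcf7 barcodes of suffix 1 and suffix 2, against 389 and 329 CPM (log2 ratio -1.80, -1.98 to -1.62). Over all 144 and 172 barcodes its ratio was -0.98, and the 9 barcodes rich in mast cell genes are in that set. ILC2 markers had 5 measured members, 0 above 0 and 2 at least 2-fold lower (Il2ra is 1 of them), with a median of -0.84. The same background of 1.81% and the same limit of the UMI minimum hold for that count. The 3 measured lymphoid tissue inducer markers all lay above 0, with a median of 0.59 and 0 at least 2-fold higher.

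Other genes that were lower in both suffixes have no common list. Stat3, a cytokine signal transducer, had 29.9 and 37.0 CPM in the low-Tcf7 barcodes of suffix 1 and suffix 2, against 64.7 and 86.2 CPM in the high-Tcf7 barcodes. Dpp4 (CD26), a surface peptidase, had 36.7 and 37.0 CPM, against 84.4 and 82.1 CPM. Gyg, the glycogenin that primes glycogen, had 80.2 and 69.4 CPM, against 161 and 142 CPM. These 3 genes gave similar ratios in both suffixes, between -1.22 and -1.01. Scin had 23.6 CPM in all deep low-Tcf7 and 61.4 CPM in all deep high-Tcf7 barcodes, Emilin2 20.6 and 51.3 CPM, Cdkn1a (the cell cycle inhibitor p21) 27.6 and 55.5 CPM, and Gse1 28.6 and 55.0 CPM. Akr1c13, which has near-identical relatives, had 21.6 and 63.7 CPM, with 28.7% of the high-Tcf7 UMIs in 1 barcode.

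Myeloid genes were split: of 17 measured members 8 lay above 0, with a median of -0.03 (-0.29 to 0.73). Plac8 was the most abundant with 1686 CPM in low-Tcf7 and 2061 CPM in high-Tcf7 barcodes. Tyrobp, a signalling adaptor, had 305 and 324 CPM, and Cebpb 67.8 and 99.4 CPM. Beside a background of 1.92%, 4 members were at least 2-fold higher and 0 at least 2-fold lower. The 4, Irf8, Cd33, Csf1r and Csf2rb (17 and 4 UMIs), were all below 20 CPM. Irf8 had 15.3 and 4.44 CPM and Cd33, also chosen after its value was seen, 14.3 and 5.92 CPM. In barcodes with at least 3 Mpo UMIs, described below, 5 of 21 measured members were at least 2-fold higher, beside 1.07%. Mpo, which the rule limited, had 35.9 and 39.0 CPM. Heat shock, ribosomal protein and Bcl2 family genes had medians between -0.03 and 0.02.

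Over all genes 9609 had at least 20 UMIs in the 144 and 172 barcodes, of which 223 (2.32%) were at least 2-fold higher and 157 (1.63%) at least 2-fold lower in the low-Tcf7 set. In the deep comparison these were 183 (1.92%) and 172 (1.81%) of 9511. The genes of highest ratio over all barcodes owed it to few of them. Cma1 and Mcpt4, mast cell proteases, had 927 and 816 UMIs in the low-Tcf7 set, in 11 and 9 barcodes, and 0 in the high-Tcf7 set. In the deep low-Tcf7 barcodes they had 0 and 1. Tpsb2 (409 UMIs) and Mcpt2 (408 UMIs) had 0 in the deep low-Tcf7 barcodes, and Cd74, the MHC class II invariant chain, 6 of its 349. S100a4 had 39.2 CPM in deep low-Tcf7 and 21.2 CPM in deep high-Tcf7 barcodes, and S100a6 38.2 and 21.7 CPM; over all barcodes they were at 56.9 and 21.1 CPM and at 52.8 and 23.1 CPM.

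Car2, Blvrb and Cpox, a carbonic anhydrase and 2 enzymes of haem metabolism used in red cell development, had high ratios in which a single barcode held much of the deep low-Tcf7 UMIs. Car2 had 26.1 and 155 CPM in the low-Tcf7 barcodes of suffix 1 and suffix 2, against 15.3 and 34.1 CPM, and 1 barcode held 38.6% of its UMIs. Blvrb had 5.80 and 83.1 CPM, against 2.74 and 4.94 CPM, with 48.2% in 1 barcode, and Cpox 20.3 and 83.6 CPM, against 15.3 and 20.2 CPM, with 50.5%. At least 5 Car2 UMIs were seen in 12 deep low-Tcf7 barcodes, all of suffix 2, and 2 deep high-Tcf7 barcodes, and at least 5 Blvrb UMIs in 2 and 0. Mt1, a metallothionein, had 57.1% of its deep low-Tcf7 UMIs in 1 barcode, and was at 51.2 and 195 CPM in the deep low-Tcf7 barcodes of suffix 1 and suffix 2, against 66.3 and 14.4 CPM.

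**Figure D3:**
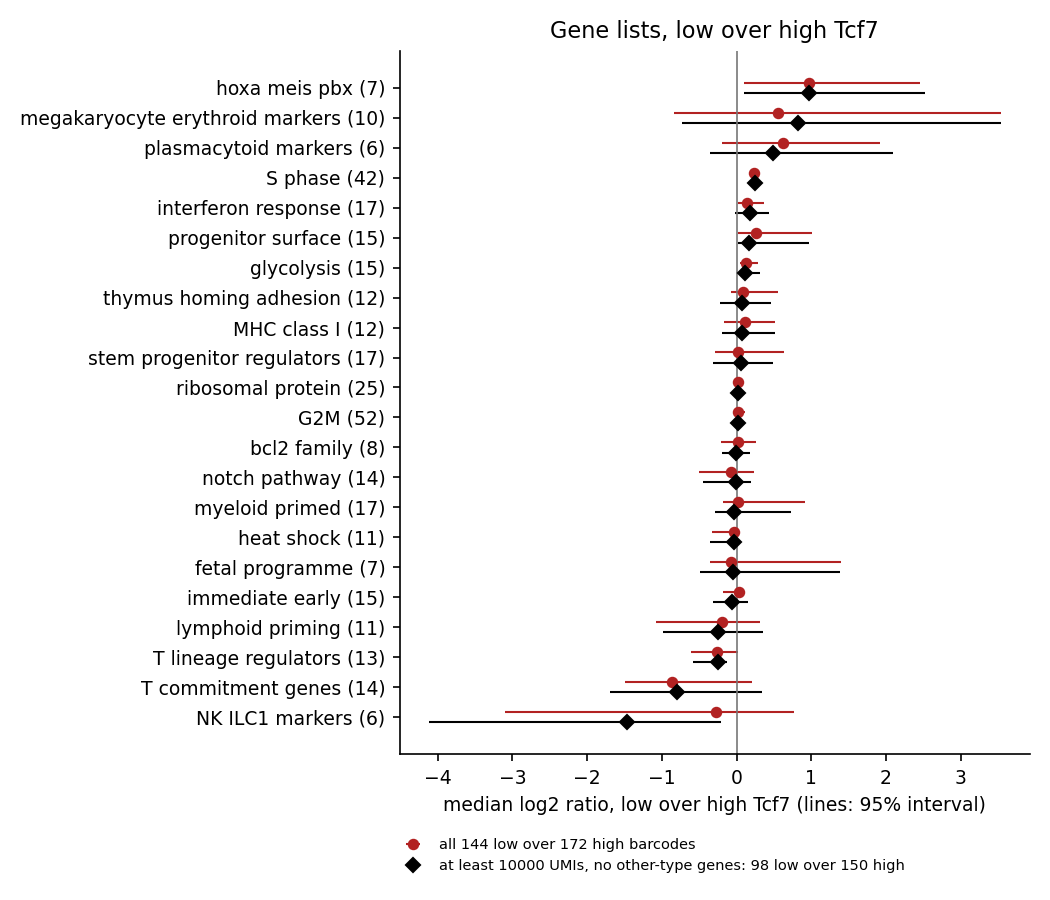
Median log2 ratio of each gene list, low Tcf7 over high Tcf7, over all 144 and 172 barcodes (circles) and over the 98 and 150 deep ones (diamonds), with order-statistic 95% intervals; the number of genes measured in the deep comparison is in parentheses. The Hoxa, Meis and Pbx list stands above 0 with both intervals. The T commitment and NK/ILC1 medians lie below it, but of their intervals only the deep NK/ILC1 one leaves out 0. Deep intervals that leave out 0 also include those of T lineage regulators, S phase genes and progenitor surface genes. Most other medians lie near 0, while the deep megakaryocyte and erythroid median is 0.82 with an interval that includes 0.

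The differences were also read at equal depth, with each barcode thinned to 10000 UMIs. Barcodes with at least 5 UMIs of the innate genes Icos, Rora and Zbtb16 (1304, median 16004 UMIs before thinning) served as the type that should lack progenitor genes. A Hoxa9 UMI was found in 26.5% of low-Tcf7 barcodes (18.1 to 36.4%), 6.67% of high-Tcf7 barcodes (3.24 to 11.9%) and 0.307% of the innate barcodes. Before thinning these shares were 46.9%, 16% and 1.53%. Flt3 was found in 12.2% of low-Tcf7 barcodes (6.49 to 20.4%), 2% of high-Tcf7 barcodes (0.414 to 5.73%) and 0.460% of innate barcodes, Lmo2 in 21.4%, 7.33% and 0.613%, and Hmga2 in 35.7%, 16% and 3.22%. For Hoxa9, Flt3, Lmo2 and Hmga2 the low-Tcf7 share was above both others, with intervals of the low-Tcf7 and high-Tcf7 shares that did not meet. Spi1 was found in 73.5% of low-Tcf7, 70.0% of high-Tcf7 and 4.14% of innate barcodes, and Kit in 53.1%, 57.3% and 42.8%.

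The genes that were lower gave the opposite order. Il2ra was found in 15.3% of low-Tcf7 barcodes (8.83 to 24%) and 41.3% of high-Tcf7 barcodes (33.4 to 49.7%), Cpa3 in 42.9% and 82.7%, Stat3 in 24.5% and 55.3%, and Gzma in 11.2% and 31.3%. The innate barcodes held Gzma in 15.3%, so the low-Tcf7 share was no higher than the share in that type. Bcl11b was found in 1.02% and 8%, with intervals that met. The genes checked for detection included those of highest and lowest low-over-high ratio in these same barcodes. Counts of them describe that choice, and no share over all genes was measured. The low-Tcf7 and high-Tcf7 intervals were apart for 20 of the genes checked, Tcf7 and the rule's other genes included, at 10000 UMIs and for 11 at 5000 UMIs. At 5000 UMIs those of Flt3, Hoxa9, Cd34, Egfl7, Il2ra, Cpa3, Dpp4 and Gzma were still apart, while those of Lmo2, Hmga2 and Stat3 met.

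**Figure D4:**
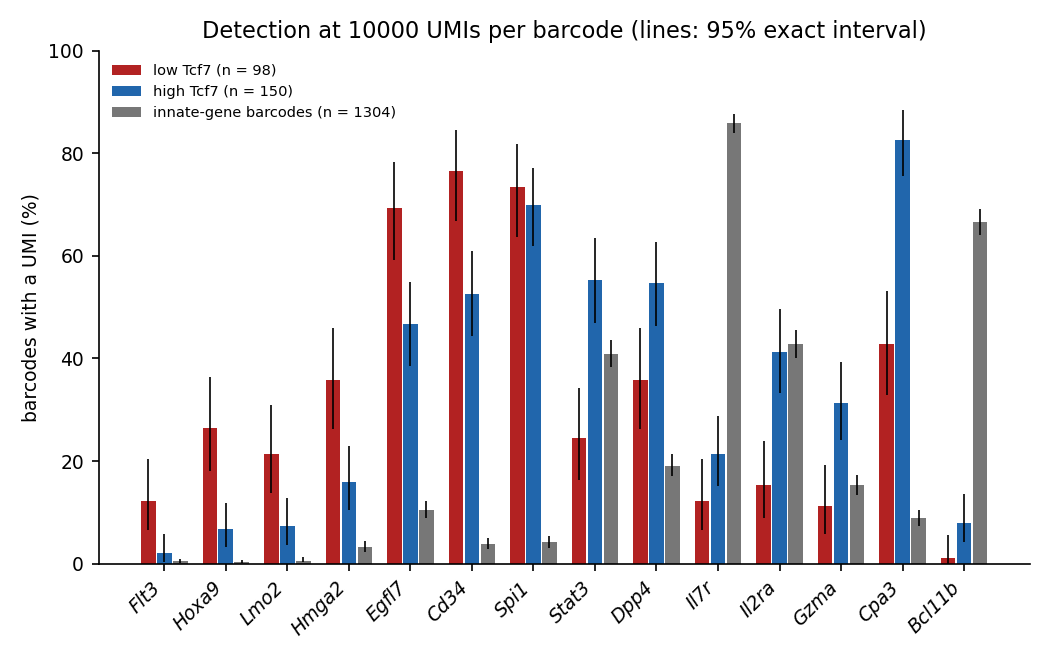
Share of barcodes (%) with at least 1 UMI of a gene after thinning to 10000 UMIs, in low-Tcf7, high-Tcf7 and innate-gene barcodes, with Clopper-Pearson 95% intervals as lines. Flt3, Hoxa9, Lmo2 and Hmga2 bars are tallest in the low-Tcf7 barcodes, while Il2ra, Gzma and Cpa3 bars are shorter there than in the high-Tcf7 barcodes.

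Gene levels were also read over steps of Tcf7 UMIs, beside the single limit of 150 CPM. With so few UMIs per barcode, counting error can place a barcode in a neighbouring step. Pooled levels therefore cannot tell a gradient among barcodes from a mixture of separate groups, and which of them holds was not tested. With thinned barcodes ordered by their Tcf7 UMIs (0, 1, 2 to 3, and 4 or more, with 60, 53, 78 and 57 barcodes), Hoxa9 stood at 48.3, 26.4, 14.1 and 0 CPM, and Flt3 at 23.3, 13.2, 6.41 and 0 CPM; a level of 0 in the last step has an upper bound of 6.47 CPM. Cd34 stood at 200, 157, 114 and 82.5 CPM, and Egfl7 at 183, 100, 69.2 and 61.4 CPM. Each of these 4 genes was lower at each step. The intervals of neighbouring steps overlapped except at the first step of Egfl7 and the last of Hoxa9, and Cd34 was part of the rule. Within a suffix the counts are small. Hoxa9 stood at 26.3, 18.5, 17.6 and 0 CPM in suffix 1 and at 58.5, 34.6, 11.4 and 0 CPM in suffix 2. Flt3 had 2 UMIs in suffix 1, both at the first step, and stood at 29.3, 26.9, 11.4 and 0 CPM in suffix 2. Egfl7 stood at 126, 66.7, 64.7 and 45.8 CPM in suffix 1 and at 210, 135, 72.7 and 72.7 CPM in suffix 2. Il2ra stood at 28.3, 39.6, 79.5 and 107 CPM, and Cpa3 at 127, 215, 276 and 495 CPM, both higher at each step with the suffixes pooled. In suffix 1 alone Il2ra stood at 47.4, 48.1, 91.2 and 87.5 CPM, and Cpa3 was higher at each step in both suffixes. Gzma stood at 40.0, 34.0, 129 and 442 CPM, level over the first steps and higher from there, with 971 CPM at the last step in suffix 1 and 57.6 CPM in suffix 2. Spi1 stayed between 148 and 163 CPM.

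The same genes were read in barcodes with at least 3 Mpo UMIs that met the other steps and had at least 10000 UMIs, 375 with low Tcf7 and 238 with high Tcf7. These barcodes are not in the sets above but come from the same libraries. Flt3 had 19.9 CPM in the low-Tcf7 and 6.68 CPM in the high-Tcf7 ones, Hoxa9 33.9 and 15 CPM, Hmga2 62.7 and 30.1 CPM, Egfl7 156 and 87.4 CPM, Il2ra 34.2 and 79.6 CPM, Gzma 15.7 and 67.7 CPM, and Bcl11b 1.48 and 7.41 CPM. The directions of these genes were those of the barcodes with fewer than 3 Mpo UMIs, and the ratios were smaller. The Hoxa, Meis and Pbx list had a median of 0.24 (-0.04 to 0.66) there, with 1 of 9 measured members at least 2-fold higher. T commitment genes had a median of -0.23 (-0.62 to 0.06) and NK and ILC1 markers -0.24 (-2.11 to 0.61). Each of these intervals included 0, while that of the T lineage regulators did not (-0.36, -0.94 to -0.12). Of 10624 genes measured there, 114 (1.07%) were at least 2-fold higher and 119 (1.12%) at least 2-fold lower. Of the 12 genes of lowest ratio in the main comparison 11 were lower here, beside 59.1% of all genes that were lower in the main comparison. Of the 9 of the 12 highest that could be measured, 5 were higher here, beside 56.7%. S100a4 had 36.2 and 38.8 CPM there, S100a6 23.5 and 28.6 CPM, Blvrb 5.38 and 6.10 CPM and Car2 52.4 and 51.1 CPM.

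**Figure D5:**
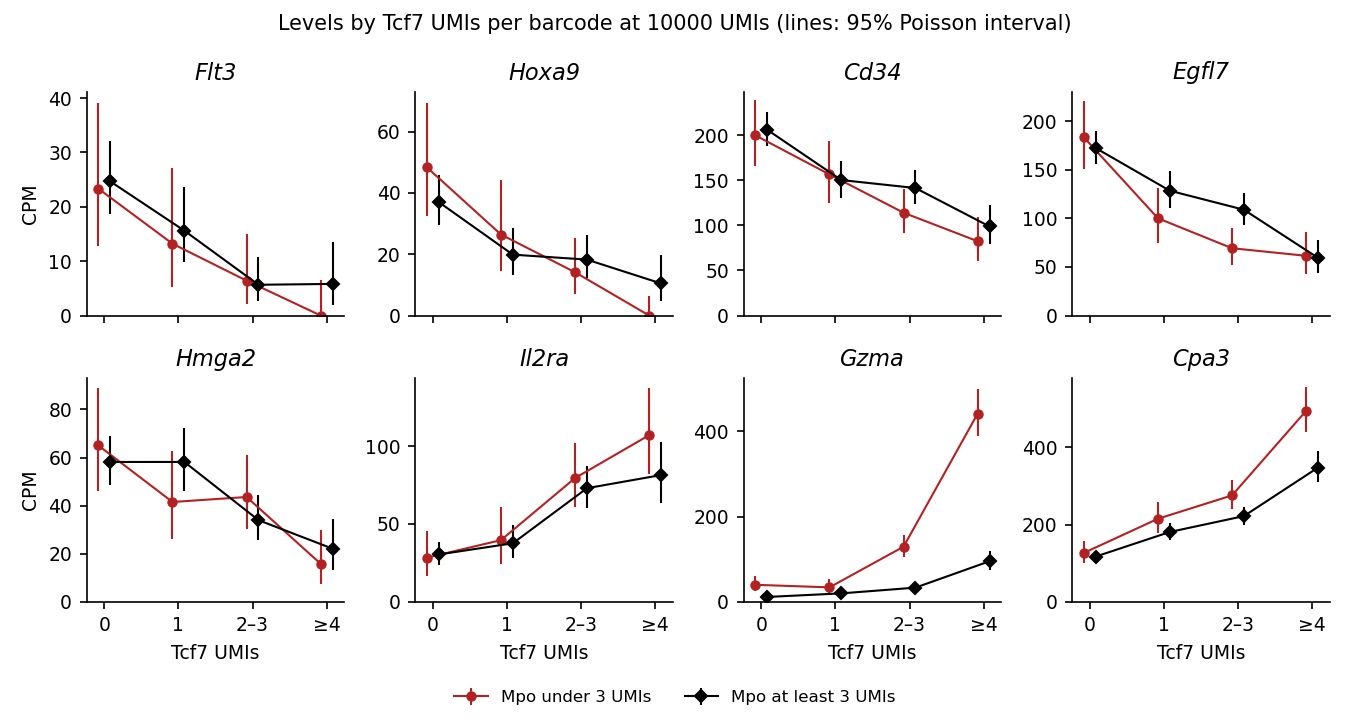
Summed levels (CPM) of 8 genes in barcodes grouped by their Tcf7 UMIs after thinning to 10000 UMIs, for barcodes with fewer than 3 Mpo UMIs and with at least 3, with 95% Poisson intervals as lines. Flt3, Hoxa9, Cd34 and Egfl7 slope down and Il2ra and Cpa3 slope up in both. The Gzma level at 4 or more Tcf7 UMIs is 442 CPM with fewer than 3 Mpo UMIs and 95.3 CPM with at least 3.

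S phase genes differed by less than 2-fold. Of 42 measured members 0 were at least 2-fold higher and 40 lay above 0, with a median of 0.25 (0.21 to 0.34), of 0.07 in suffix 1 and of 0.53 in suffix 2 (3 at least 2-fold higher). Over all 144 and 172 barcodes the median was 0.23, and 0.036 with each barcode weighted equally. At equal depth the list summed to a median of 43 UMIs per low-Tcf7 barcode and 41 per high-Tcf7 barcode in suffix 1, and to 37 and 24 in suffix 2. G2/M genes had a median ratio of 0.02 (-0.04 to 0.12) and summed to 73 and 68 UMIs per barcode in suffix 1 and to 40 and 24 in suffix 2. The interquartile ranges overlapped in each of these pairs; for S phase in suffix 2 they were 26 to 48 in low-Tcf7 and 13.5 to 30.5 in high-Tcf7 barcodes. Mki67, a proliferation marker likewise chosen, was found in 56.1% of low-Tcf7 and 47.3% of high-Tcf7 barcodes at equal depth, with intervals that met.

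Among themselves the deep low-Tcf7 barcodes differed by suffix. Of 8115 genes 130 (1.60%) were at least 2-fold higher and 339 (4.18%) at least 2-fold lower in suffix 1 than in suffix 2, beside 177 (2.05%) and 313 (3.63%) of 8632 genes in the high-Tcf7 barcodes. Interferon response genes had a median log2 ratio of -1.69 (-2.07 to -0.98) over 15 members, 0 of them above 0, beside -0.71 in the high-Tcf7 barcodes. In the suffix 1 and suffix 2 low-Tcf7 barcodes Isg15, an interferon-induced ubiquitin-like protein, had 36.7 and 119 CPM, and Rtp4 25.1 and 80.6 CPM. Khdc1a had 60.9 and 7.60 CPM, Scin 40.6 and 14.7 CPM and Tnni2 79.2 and 36.0 CPM, higher in suffix 1. Progenitor surface genes had a median of -0.49 (-1.04 to -0.13). The library and whatever stage it holds cannot be told apart.

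Clustering of the 144 barcodes gave 3 clusters, whose leading genes describe the clusters and are no results. The first held 76 barcodes (32 of suffix 1, 44 of suffix 2, median 29958.5 UMIs) and was led by Spc25, Mt2 and Prc1, with the mitotic genes Cdk1, Ccnb1 and Top2a among its 10 leading genes; Mt2 came from 2 barcodes. The second held 59 (18 and 41, median 15438 UMIs) and was led by S100a9, S100a8 and H2-Aa, each from 6 or fewer of its barcodes, and 42 of the 59 had 0 Tcf7 UMIs. The third held the 9 barcodes rich in Mcpt4, Cma1 and Mcpt2 (median 2935 UMIs). The clusters stay unnamed.

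Set against the 5043 other barcodes that passed the quality filters, the 144 had 1044 of 12491 genes (8.36%) at least 2-fold higher and 1095 (8.77%) lower. Among genes with at least 50 CPM in the 144 and a higher level in both suffixes, those of highest ratio beyond the mast cell proteases were Mt1, Mef2c, Cd34, Tnni2, Hmga2 and Bcl11a. Mef2c, Cd34 and Bcl11a were part of the rule, so their place describes the choice. The neutrophil genes S100a9 (513 and 8 UMIs) and S100a8 (353 and 6) had higher ratios, and all their UMIs in the 144 were in suffix 2. Tnni2, a troponin subunit, had 50.4 CPM in low-Tcf7 and 14.4 CPM in other barcodes, and Hmga2 66.5 and 19.4 CPM. Notch1 had 137 and 78.1 CPM. Of 15 measured NK and ILC1 markers 14 were at least 2-fold lower, and of 13 ILC2 markers 11; the rule removed innate barcodes, so these counts describe the choice.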

How the data were processed

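The deposited table holds raw UMI counts per gene and barcode, as whole numbers, for 2 pooled libraries of sorted embryonic DN1 cells. The submitters' processing notes name Cell Ranger 3.0.2, STAR and the GRCm38 build. The library was 10x 3′ v3, per the labels' protocols, which describe a lysis that yields nuclei; the sources used here do not say which were loaded. Counting with introns is not given in the sources used here. T-cell receptor chain genes were not analysed here, and neither are 1 further locus and its reporter. All columns were used, 0 were set aside.

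UMIs were summed per set and given as CPM. A ratio needed 20 UMIs over both sets, a count of 0 was raised to a floor of 3 per set, and a call is a 2-fold ratio. Medians of lists have order-statistic intervals. Doublets were kept in the main values; Scrublet called 10 barcodes in suffix 1 (0.466%) and 93 in suffix 2 (2.76%), of which 3 were low-Tcf7 and 1 high-Tcf7. Thinning to 10000 UMIs left out 28 low-Tcf7, 22 high-Tcf7 and 438 innate barcodes. The members were clustered in scanpy 1.11.5 with leidenalg 0.10.2 (2000 variable genes, 20 components, 15 neighbours, resolution 0.5). The functions were tested on simulated data. Scripts ran in Python 3.11.15 with scipy 1.17.1 and numpy 2.4.6.

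The members and the 31 gene lists were chosen with earlier results of these data known. Named genes are the 12 of highest and 12 of lowest low-over-high ratio with at least 50 CPM and 1 sign in both suffixes, the 10 of highest ratio over other barcodes, the rule's genes and markers, the 4 most abundant members of each list, the 3 leading genes of each cluster and the reporters; others are said to be chosen after their values were seen. Filters, Tcf7 limits, doublets, depth, suffixes, scaling and weighting were varied. UMIs come from 1 library per stage, so intervals cover counting error only.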

Additional observations from a re-analysis of the deposited data

Results flagged for a closer look

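Outside the quality filters, 39 barcodes met every other step of the rule (9 in suffix 1, 30 in suffix 2); they are a signal in data the report does not use. Of these, 28 failed the mitochondrial limit and 6 the gene minimum, at a median of 2804.5 and 884 UMIs. A further 9 failed only the limit on Krt8, Krt18 and Prss16 and had at least 10000 UMIs, with a median of 42567 UMIs, 57 Spi1 UMIs in all and a summed progenitor level of 849 CPM.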

How the results depend on the processing

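The set of 144 became 77 with 0 Tcf7 UMIs required, 51 and 93 in suffix 1 and suffix 2, and 92 without barcodes holding macrophage, B lineage or neutrophil markers; among barcodes with at least 3 Mpo UMIs, an alternative added after the data were seen, it was 375. The 223 genes at least 2-fold higher became 106 with thinned barcodes, 124 in suffix 1, 704 with no count minimum, 421 with barcodes weighted equally and 114 with Mpo; the 157 lower became 364 with 0 Tcf7 UMIs, 415 with no minimum and 389 with equal weights. The S phase median was 0.051 in suffix 1, 0.48 in suffix 2 and 0.036 with equal weights. The G2/M median was -0.18 at a Tcf7 limit of 100 CPM, 0.20 against Tcf7 of at least 300 CPM, -0.26 with 0 Tcf7 UMIs, 0.16 at a progenitor sum of 500 CPM, 0.12 thinned, -0.064 in suffix 1, 0.19 with equal weights and 0.48 with Mpo, so it has no stable direction. The myeloid median was -0.21 at 500 CPM. Among list medians whose interval leaves out 0 (or, with too few genes for one, of at least 1), direction changed for the dendritic list in suffix 1 (-0.14), the interferon list thinned (-0.10) and in suffix 1 (-0.46), and the ribosomal list in suffix 2 (-0.0019), with equal weights (-0.016) and with Mpo (-0.010). It changed with Mpo for Cma1 (-2.22), Blvrb (-0.18), S100a4 (-0.10), S100a6 (-0.29) and Khdc1a (0.27), and with equal weights for Akr1c13 (0.25). Genes with detection intervals apart numbered 11 at 5000 UMIs, and clusters 6 at resolution 1. Other list medians, whose interval includes 0 or could not be had, differed in sign from the main value in 66 comparisons over 18 lists, so they have no set direction. The causes were not tested. Of 495 list comparisons 451 stayed inside the interval of the main value, as did 344 of 486 gene comparisons. Where no interval could be had, a fixed margin around the main value was used. No paired analysis was possible because each stage has 1 library and no column is tied to a stage. Depth limits calls of low Tcf7 in the 43 barcodes under 10000 UMIs.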
